A study of Homo sapiens with 12 samples.

Results

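In human U2OS-MycER cells, 217 stretches of the autosomes were called as early replicating regions (ERRs) with CDK12 silenced, both without and with activated MycER, and were called in neither condition with a non-targeting hairpin. They were chosen by their presence in the lists: the 4 deposited lists were merged wherever regions overlapped or touched, and a merged region was kept when it held at least 1 region of shCDK12 and 1 of shCDK12_OHT and none of shNT or shNT_OHT. The 217 regions are 4.44% of the 4886 merged autosomal regions and cover 11.8 Mb, or 1.95% of the 603 Mb of all of them. They are called silenced-only regions here.

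U2OS is an osteosarcoma line, and U2OS-MycER cells carry a chimera of Myc and the estrogen receptor that 4-hydroxytamoxifen (OHT) activates. The 4 conditions were shNT (a non-targeting hairpin), shNT_OHT, shCDK12 (a hairpin against CDK12) and shCDK12_OHT, with 3 samples each and 12 in all. In every condition the hairpin was induced with 1 µg/mL doxycycline, cells were arrested for 8 h with 100 ng/mL nocodazole, and mitotic cells were released for 24 h into 25 µM EdU and 2 mM hydroxyurea. The OHT conditions also received 300 nM OHT for 40 h, and all 4 carried the MycER transgene.

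DNA replication starts at origins that fire in a rough order over S phase, and the early ones lie mostly in open, transcribed chromatin. EdU is a thymidine analogue that marks new DNA. Hydroxyurea starves forks of nucleotides, so label stays close to the origins that fired first, and an ERR is a broad stretch in which that label is enriched. CDK12 is a kinase that phosphorylates transcribing RNA polymerase II and sustains the expression of long genes and of DNA repair genes, and Myc is a transcription factor whose oncogenic activation drives cells into S phase and causes replication stress.

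The files give 1 list for each condition, made from the merged replicates, so no value below has a replicate error and no difference was tested. Intervals of shares (Wilson 95%) and of medians (95%, from order statistics) are sampling intervals that treat the regions of these lists as independent. They do not give the range of values between regions, and regions are not replicates of a condition. Whether the 3 samples of a condition came from separate cultures is not given in the sources used here. The autosomal lists held 3796 regions in shNT, 4556 in shNT_OHT, 4799 in shCDK12 and 4676 in shCDK12_OHT, with between 13220717 (shCDK12) and 49994993 (shNT_OHT) reads inside them. The list of shNT was the shortest, and its lowest score, 145.513, was the highest of the 4 lowest scores. Silencing of CDK12 itself cannot be checked in these lists of regions. Positions are those of the lists, read as hg19, counted from 1, and no gene or sequence was assigned to them.

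Silenced-only regions were narrow and thinly labelled among ERRs. In shCDK12 they had a median width of 30 kb (28.4 to 32.4, n = 217) and a median of 11.7 reads per kb (11.4 to 11.9). In shCDK12_OHT they had a median width of 46.0 kb (44 to 50.8) and 24.9 reads per kb (24.4 to 25.5). The 2932 regions held by all 4 lists were wider and denser in both conditions, with medians of 83.2 kb and 20.1 reads per kb in shCDK12 and 99.4 kb and 39.9 reads per kb in shCDK12_OHT. The rule leaves out any call that meets an shNT-list region, while a region of all 4 lists needs a call in each. Wide and strong calls can thus fall more readily into the second set. The part of this selection in the differences of width, density and score was not tested. Counts are not scaled to library size, so a difference in reads per kb between 2 lists also holds the difference in their read numbers.

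Merged over both lists, silenced-only regions ran from 0.8 to 211.2 kb, with a median of 48.8 kb (46 to 52.8). Of the 217, 191 were 20 to 100 kb wide, 14 were at least 100 kb and 5 were under 10 kb. The middle 50% had merged widths of 37.2 to 64.8 kb. Other sets missing from some lists were similar. The range was 38.4 to 58.9 kb in the 124 regions of both shNT lists only. It was 36.0 to 65.4 kb in the 183 regions of both OHT lists only. Regions of all 4 lists had 63.2 to 202.8 kb. They supplied 225 of the regions of shCDK12 and 218 of those of shCDK12_OHT. Those are 4.69% and 4.66% of the regions of the lists, but only 1.57% and 2.08% of their called length and 0.632% and 0.996% of their reads. The share of regions was thus more than the share of length, and that in turn more than the share of reads, in both lists. In shCDK12 the middle 50% of silenced-only regions lay between 10.9 and 12.9 reads per kb, against 15.3 to 29.5 for regions of all 4 lists. Regions of all lists but shNT were close to them, with 11.7 to 14.5 reads per kb and a median width of 35.6 kb in shCDK12.

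The score that the authors gave each region ranks it within its list. The best score of a silenced-only region stood at the 12.1th percentile of shCDK12 at the median (10.4 to 14.5) and at the 19.0th of shCDK12_OHT (17.5 to 22.4). In shCDK12, 184 of 217 (84.8%, 79.4 to 89.0) fell in the lowest 25% of the list and 1 lay above its median. In shCDK12_OHT, 139 (64.1%, 57.5 to 70.1) fell in the lowest 25% and 10 lay above the median. Those 10 included calls of only 0.4, 0.8, 1.2, 10.4 and 15.6 kb in shCDK12_OHT, and the rest spanned 41.2 to 211.2 kb. By score, silenced-only regions were mostly among the weakest calls of both lists, while regions of all 4 lists had medians of 63.8 and 64.9. Score was not separated from width or read density, so a low rank is not evidence apart from those. The 385 regions held by all lists but shNT stood between them, at 23.2 and 34.0.

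**Figure D1:**
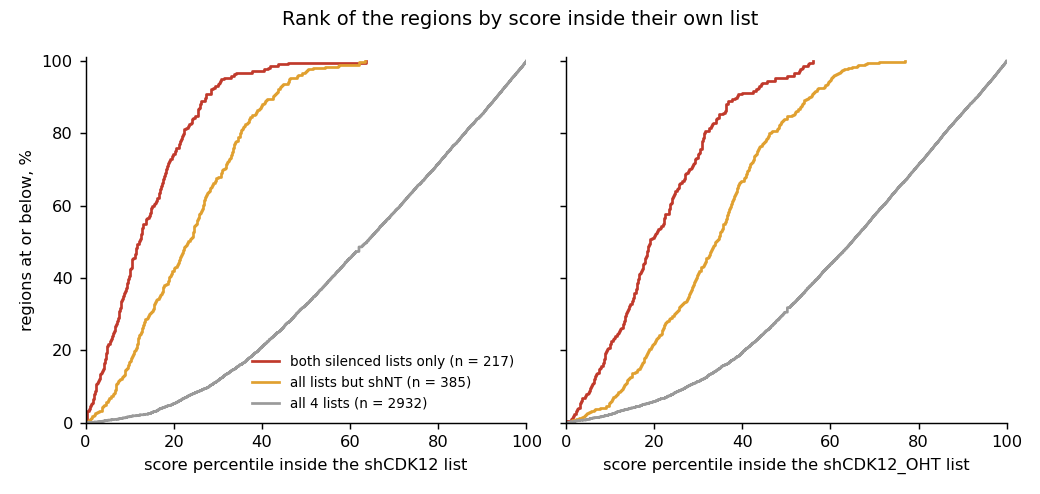
Cumulative share of regions (vertical axis, %) against their score percentile inside the shCDK12 list (left) and the shCDK12_OHT list (right), for the 217 silenced-only regions, the 385 regions of all lists but shNT and the 2932 regions of all 4 lists. The curve of silenced-only regions rises first in both panels, with medians of 12.1 and 19.0 against 63.8 and 64.9 for regions of all 4 lists.

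The converse set, the 124 regions found in both shNT lists and in neither silenced list, looked alike in size. Their merged median width was 48.0 kb (44 to 50.8), and their scores stood at the 16th percentile of shNT and the 24.2th of shNT_OHT. As deposited, there were thus 217 regions on the silenced side and 124 on the other. This order depended on how far down the lists were read. With each list cut to scores of at least 145.513, 79 regions were silenced-only and 188 were in both shNT lists only. When every list was reduced to its 3874 best-scoring regions, the numbers were 131 and 210. The first of these needs scores on a common scale in the 4 lists, which is not given in the sources used here. List length, lowest score and read number differ between the conditions together with the hairpin, and their part in the 217 regions cannot be told apart from it. Of the silenced-only regions, 172 (79.3%) had a best score in shCDK12 below 145.513, the lowest score listed in shNT. In shCDK12_OHT 5 did, and both counts need the same common scale.

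**Figure D2:**
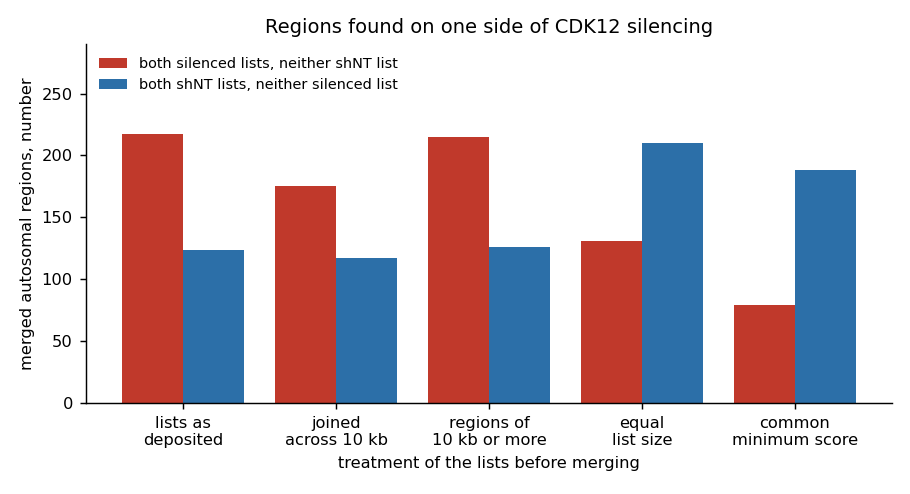
Number of merged autosomal regions (vertical axis) in both silenced lists and neither shNT list (red) and in both shNT lists and neither silenced list (blue), for 5 treatments of the lists before merging (horizontal axis). Red exceeds blue in the lists as deposited (217 and 124), after joining across 10 kb (175 and 117) and with regions of 10 kb or more (215 and 126), and blue exceeds red at equal list size (131 and 210) and above a common minimum score (79 and 188).

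The rule was met by a single window's distance at its edge. The silenced-only region nearest to an shNT-list region, chr8:102211201-102248400, lay 0.4 kb from it, followed by chr6:7416401-7483200 at 1.6 kb and chr19:43001201-43078800 at 3.6 kb. Just outside the rule, chr2:89216001-89224000 spanned 8.0 kb and was held by all 4 lists, with the shNT lists covering 0.4 kb, or 5.00%, of it. Likewise chr8:82750001-82757200 was covered by the shNT lists over 0.4 of 7.2 kb (5.56%), and chr9:70004801-70010400 by shNT_OHT over 0.4 of 5.6 kb (7.14%).

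Most silenced-only regions were called over more length in shCDK12_OHT than in shCDK12. Of the 217, 184 (84.8%, 79.4 to 89.0) were wider in shCDK12_OHT, 25 were narrower and 8 were equal. The share of wider regions was 69.6% among regions of all 4 lists and 85.2% among those of all lists but shNT. The median log2 width ratio was 0.47 (0.41 to 0.61), a 1.39-fold difference. In 95 (43.8%, 37.3 to 50.4) the region was at least 1.5-fold wider, against 19.6% of the 3544 merged regions held by both silenced lists. In 53 (24.4%) it was at least 2-fold wider, against 5.18% of regions of all 4 lists and 22.1% of regions of all lists but shNT. The opposite was seen in 5 (2.30%, 0.988 to 5.28), at least 1.5-fold narrower in shCDK12_OHT, against 1.95% of all regions of both lists, so that share was near the background.

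Regions held by all lists but shNT widened by as much. Their median log2 width ratio was 0.50 (0.43 to 0.60), and 45.5% were at least 1.5-fold wider. In regions of all 4 lists the ratio was 0.10 (0.09 to 0.11) and that share was 14.4%. Wider calls in shCDK12_OHT were therefore shared by both sets that shNT lacked. The Spearman correlation of the shCDK12 score percentile with the log2 width ratio was -0.33 across silenced-only regions. It was -0.30 across regions of all 4 lists. These are descriptions over regions that share the same 2 lists. The same shCDK12 call gives the score and the denominator of the ratio, so a negative value can follow in part from that. More reads lay in the regions of shCDK12_OHT (28573223) than in those of shCDK12 (13220717), and the part of read number in the widths was not tested.

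**Figure D3:**
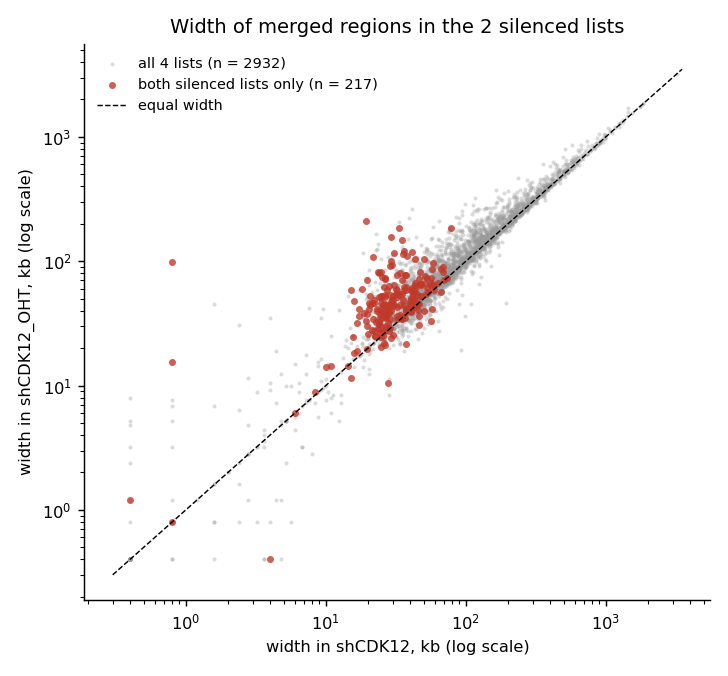
Width in shCDK12 (horizontal axis, kb, log scale) against width in shCDK12_OHT (vertical axis, kb, log scale) of the 217 silenced-only regions (red) and the 2932 regions of all 4 lists (grey), 1 point per merged region, with equal width as the dashed line. Of the red points 184 lie above the line and 25 below it, and 191 of the 217 have a merged width of 20 to 100 kb.

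The widening was mostly an extension around the shCDK12 call. In 128 silenced-only regions (59.0%, 52.3 to 65.3) every base called in shCDK12 was also called in shCDK12_OHT. The share was 45.1% among all regions of both lists and 67.3% among those of all lists but shNT. The reverse nesting was seen in 15 (6.91%, 4.23 to 11.1), against 16.3% and 8.83% in the same order. Both ends lay further out in shCDK12_OHT in 115 (53.0%, 46.4 to 59.5), compared with 34.7% of regions of all 4 lists and 57.4% of those of all lists but shNT. Identical limits were found in 3. The median extension was 5.2 kb (4.4 to 6.8) at the left end and 3.2 kb (1.6 to 5.2) at the right.

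Among the regions that the rule kept, the extension was no longer toward shNT-list regions than away from them. Among the 215 silenced-only regions with a shNT-list region on both sides, the end toward the nearer one moved out by a median of 4.0 kb (2.8 to 5.2) and the other end by 5.6 kb (4 to 7.2). It was longer toward the nearer region in 97, longer away from it in 111 and equal in 7. A call that reached an shNT-list region would have been merged with it and left out. The rule thus limits the nearer side, and these values cannot show whether the extension had a direction. The centre shifted by a median of 4.6 kb (3.4 to 6.2). Bases called in both lists made up a median fraction of 0.644 of the bases called in either (0.586 to 0.703). The fraction was 0.858 in regions of all 4 lists and 0.661 in regions of all lists but shNT. That the calls meet at all follows from the rule, which merges overlapping or touching regions. Widths in the 2 lists had a Spearman correlation of 0.51 across silenced-only regions and 0.95 across regions of all 4 lists, given as a description.

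Read density was higher as well, though the shCDK12_OHT list also held more reads (28573223 against 13220717). Reads per kb, unscaled, were higher in shCDK12_OHT in 214 of 217 silenced-only regions (98.6%), which is no more than the 98.9% of regions of all 4 lists and the 99.7% of regions of all lists but shNT. The median log2 ratio was 1.11 (1.07 to 1.15). Regions of all 4 lists had 0.98, and this served as the reference for the unequal read numbers of the lists. Relative to it, silenced-only regions were higher by 0.12 (0.08 to 0.17), or 1.09-fold, and regions of all lists but shNT by 0.13 (0.11 to 0.16). Width and density together gave a median log2 reads ratio of 1.61 in silenced-only regions, or 3.06-fold. The log2 ratio was 1.13 in regions of all 4 lists and 1.63 in regions of all lists but shNT.

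The 8 widest silenced-only regions were all at least 2-fold wider in shCDK12_OHT, and 7 of them were patches of under 50 kb in shCDK12. The widest, chr12:4945601-5156800, was called over 19.2 kb with 232 reads in shCDK12 and over 211.2 kb with 5295 reads in shCDK12_OHT, a log2 width ratio of 3.46. Its density was 12.1 reads per kb in shCDK12 (exact Poisson 95% interval 10.6 to 13.7, counting error only) and 25.1 in shCDK12_OHT (24.4 to 25.8). The shCDK12 patch, at 5098001 to 5117200, lay inside the wide call and not at either end. It ranked at the 0.327th score percentile of shCDK12, while the wide call ranked at the 54.9th of shCDK12_OHT. An shNT-list region lay 16.8 kb away.

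Others of the 8 took the same form. The region chr3:185825601-186009600 went from 33.2 kb and 360 reads to 184 kb and 4943 reads. At chr8:120967601-121124400 the call went from 29.2 to 156.8 kb, and at chr1:54073201-54222400 from 35.2 to 149.2 kb. These calls in shCDK12_OHT were filled at the density of other silenced-only regions, between 21.4 and 26.9 reads per kb over all 8. The region chr7:97556001-97739600 stood apart by its call in shCDK12, the widest of any silenced-only region at 78.4 kb with 1034 reads, which ranked at the 43.7th percentile and widened to 183.6 kb with 4585 reads. The others were chr5:78414801-78536400 (36.4 to 121.6 kb), chr2:99807201-99923200 (30.8 to 116 kb) and chr14:52478001-52603200 (41.2 to 118.8 kb, the only silenced-only region divided into 2 pieces in shCDK12_OHT).

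The largest width ratio belonged to chr11:11262801-11360800, called over 0.8 kb with 52 reads in shCDK12 and over 98.0 kb with 2194 reads in shCDK12_OHT (log2 6.94). The next, chr9:69948801-69964400, went from 0.8 to 15.6 kb. In both the shCDK12 call was a spike, at 65.0 and 61.3 reads per kb, and the shCDK12_OHT call a broad stretch at 22.4 and 26.4 reads per kb. They and the widest region were the 3 silenced-only regions whose width differed by more than 10-fold between the lists.

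The silenced-only regions with the smallest width ratios ranged from 4.0 to 60.8 kb in merged width. The extreme was chr2:230982001-230986000, which went from 4.0 kb with 68 reads to 0.4 kb with 76 reads (log2 -3.32). At chr9:69975601-70003600 the call went from 27.6 to 10.4 kb with nearly the same reads, 237 and 238. That region lay next to the widening chr9 region above, within 54.8 kb for the pair. Smaller differences were found at chr8:102211201-102248400 (37.2 to 21.6 kb), chr4:4316401-4377200 (56.4 to 32.8 kb) and chr5:64925201-64971600 (46.4 to 30.4 kb).

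The 5 narrowest silenced-only regions were denser than the median silenced-only region in both lists. The narrowest, chr14:54027201-54028000, was called over the same 0.8 kb in both lists with 88 and 108 reads, that is 110 reads per kb (88.2 to 136) and 135 (111 to 163). It was the single silenced-only region above the median score of shCDK12, at the 63.6th percentile. At chr8:46868401-46869600 the calls were 0.4 and 1.2 kb at 125 and 118 reads per kb, and at chr7:90836401-90842400 6.0 kb in both at 23.2 and 35.8. The fifth, chr11:48826401-48835600, was 8.4 and 8.8 kb wide, and the remaining one was the chr2 region that narrowed most.

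Of the broad silenced-only regions, chr8:3638001-3679200 was among the densest. It was called over 20.4 kb with 377 reads in shCDK12 and 41.2 kb with 1973 reads in shCDK12_OHT. That is 18.5 reads per kb (16.7 to 20.4) and 47.9 (45.8 to 50), both above the medians of 11.7 and 24.9, and it ranked at the 29.5th and 55.1th score percentiles. It was also the third farthest from any shNT-list region, at 2759.6 kb. Among the 5 densest in shCDK12_OHT was also chr22:16096401-16110400, at 15.4 and 41.1 reads per kb over 10 and 14 kb.

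Few silenced-only regions were broken up. In shCDK12, 8 (3.69%) consisted of 2 or more pieces, and in shCDK12_OHT 1 (0.461%) did. The shares were 22.8% and 11.7% in the wider regions of all 4 lists and 8.57% and 0.779% in regions of all lists but shNT. In chr12:4676001-4762800 the pieces of shCDK12 held 66.8 kb and the single call of shCDK12_OHT filled all 86.8 kb. The same closing of gaps was seen at chr2:60917201-60990800 (56.0 to 73.6 kb), chr3:33249201-33322400 (52.4 to 73.2 kb), chr21:33101201-33172800 (46.0 to 71.6 kb) and chr17:5127601-5189200 (44.0 to 61.6 kb). At chr4:4316401-4377200, also of 2 pieces in shCDK12, the single call of shCDK12_OHT was narrower (56.4 to 32.8 kb). Regions of 1 list are never closer than 4400 bp, so the pieces were at least that far apart.

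Many silenced-only regions lay close to ERRs of the shNT lists. The median distance to the nearest one was 67.2 kb (50.8 to 81.6), from 0.4 to 3620.4 kb. Within 10 kb there were 14, within 50 kb 93 (42.9%, 36.5 to 49.5), within 100 kb 136 (62.7%, 56.1 to 68.8) and within 500 kb 193. The regions of both shNT lists only lay farther from the silenced lists, with a median of 198 kb (137 to 292) and 30.6% (23.2 to 39.2) within 100 kb. This difference was not tested.

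Distance to the regions of all 4 lists gave the same order. The median was 83.2 kb for silenced-only regions, 91.2 kb for regions of all lists but shNT, 159 kb for the 183 regions of both OHT lists only, and 393 kb for those of both shNT lists only. The stretch between the shNT-list regions on either side of a silenced-only region had a median length of 585 kb (n = 215), of which the silenced-only region covered a median of 9.34%. Distance had almost no relation to widening, with a Spearman correlation of -0.06 with the log2 width ratio. The rule also limits widening close to an shNT-list region.

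**Figure D4:**
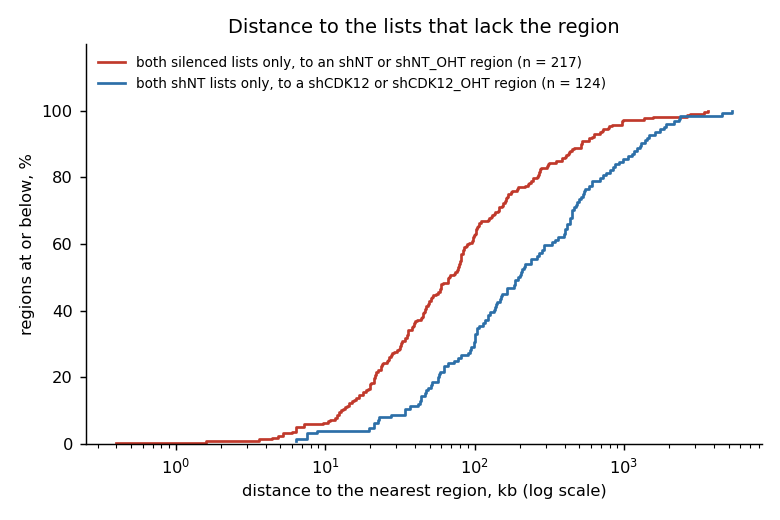
Cumulative share of regions (vertical axis, %) against distance (horizontal axis, kb, log scale) to the nearest region of the lists that lack them, for the 217 silenced-only regions (red, to shNT or shNT_OHT) and the 124 regions of both shNT lists only (blue, to shCDK12 or shCDK12_OHT). The red curve lies to the left over most of the range, with medians of 67.2 and 198 kb.

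A few silenced-only regions stood far from any ERR of the shNT lists, 6 of them by over 1 Mb. The farthest were a pair on chromosome 14, chr14:81899601-81939600 at 3620.4 kb and chr14:81685201-81720400 at 3406.0 kb, in the same empty stretch of 7611.6 kb. They were weak calls: 26.8 kb with 287 reads and 34.8 kb with 336 reads in shCDK12, and 35.6 kb with 857 reads and 34.8 kb with 806 reads in shCDK12_OHT. Their score percentiles were 2.92 and 3.37 in shCDK12. The dense region of chromosome 8 described above was the next.

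Silenced-only regions were found on all 22 autosomes. Chromosome 2 had most, 25, followed by 18 each on chromosomes 1, 3 and 15. As a share of the merged regions of a chromosome, chromosome 15 was highest with 18 of 192 (9.38%, 6.01 to 14.3) and chromosome 20 lowest with 1 of 128 (0.781%, 0.138 to 4.29), the region chr20:3392001-3456800. The intervals of these 2 chromosomes lie to either side of 4.44%, and those of the other 20 include it, among 22 chromosomes looked at. The converse set had 2 regions on chromosome 15 and 1 on chromosome 20. It was the larger set on 5 chromosomes, such as chromosome 6 (13 against 7) and chromosome 12 (11 against 7).

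**Figure D5:**
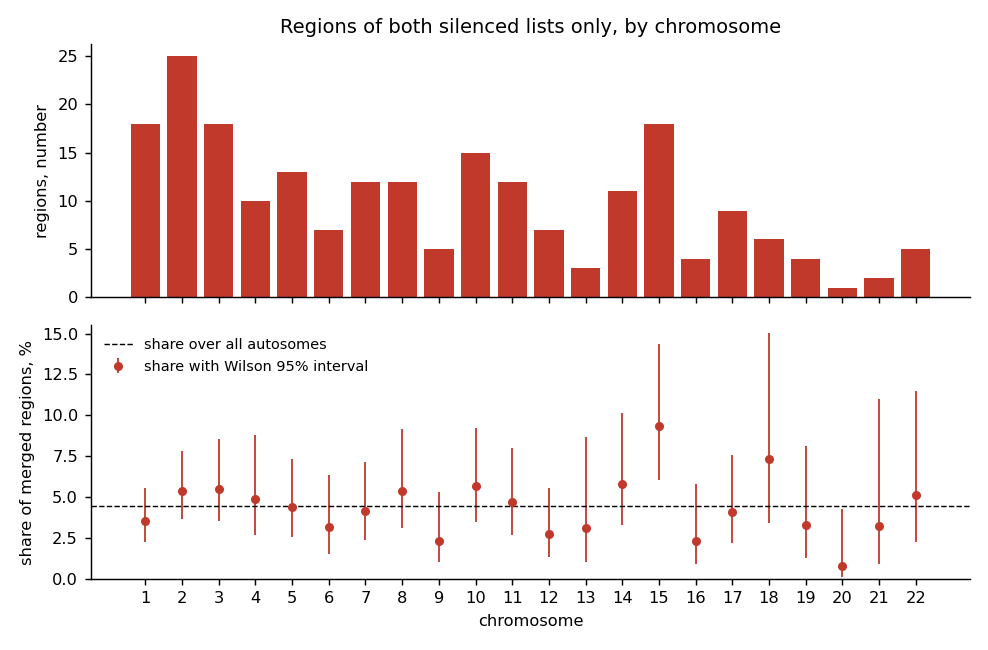
Number of silenced-only regions on each of the 22 autosomes (top) and their share of the merged regions of that chromosome in % with Wilson 95% intervals (bottom). The dashed line is the share over all autosomes, 4.44%, and the intervals of chromosomes 15 (9.38%) and 20 (0.781%) do not reach it.

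In order along the chromosomes, the regions beside silenced-only ones were held by various lists, and no share was tested against that of merged regions in general. Of their 432 neighbouring places, 238 (55.1%, 50.4 to 59.7) held a region of all 4 lists, compared with 60% for neighbours of all merged regions. Another 59 (13.7%, 10.7 to 17.2) held a region of shCDK12_OHT only, against 9.36%, and 38 (8.80%, 6.48 to 11.8) held another silenced-only region, against 4.44%.

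Some silenced-only regions lay within 500 kb of another. Taking these together gave 26 groups with 56 regions, 23 of them pairs, and left 161 alone. No other set was grouped in this way, so the counts do not show whether silenced-only regions cluster more than others. Regions of other lists between the members were ignored. The groups of chromosomes 12 and 11 named below have shNT-list regions between some of their members. The 3 larger groups are named here after their values were seen. The largest had 4 regions over 1194.8 kb of chromosome 12 (chr12:4515601-5710400) and included the widest region. Its members had 53.2, 66.8, 19.2 and 38 kb in shCDK12 and 61.2, 86.8, 211.2 and 110 kb in shCDK12_OHT. On chromosome 11 (chr11:10730001-11866000) 3 regions went from 28.0, 0.8 and 23.6 kb to 44.0, 98.0 and 81.2 kb, with the region of largest width ratio in the middle. On chromosome 10 (chr10:28571601-29048000) 3 regions went from 43.6, 23.2 and 41.2 kb to 64.0, 39.6 and 61.2 kb, and lay 191.2, 400.4 and 606.4 kb from the shNT lists. Each of these 10 regions was wider in shCDK12_OHT.

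A smaller set remained when the rules were tightened together, a choice made after seeing the data. The tightened rules required a score of at least 145.513 in both silenced lists and no shNT-list region within 50 kb. They also required an overlap of at least 50% of each list's call. The shNT lists were left whole. This kept 22 regions on 13 chromosomes, with 24.4 to 72.8 kb in shCDK12 (median 46.6) and 30.4 to 89.2 kb in shCDK12_OHT (median 56.4). Their densities were 10.7 to 16.4 and 20.2 to 36.9 reads per kb, close to those of all silenced-only regions, and 20 of 22 were wider in shCDK12_OHT. The median log2 width ratio was 0.25 (0.07 to 0.45), and 0.47 over all 217. The required overlap holds the width ratio within 2-fold, so a lower median follows in part from the filter.

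The required overlap limits how far the calls of these 22 can differ in extent. Even so, chr10:104773601-104856000 had 46.8 kb in shCDK12 and 82.4 kb in shCDK12_OHT, and chr18:6900401-6948800 had 29.6 and 48.4 kb. The highest-scoring in shCDK12, chr6:131380801-131463200 at the 45.8th percentile, had 68.8 kb with 1001 reads in shCDK12 and 82.4 kb with 2021 reads in shCDK12_OHT, 433.2 kb from the shNT lists. At chr7:3260801-3337600 both calls were 72.8 kb wide, with 985 and 1681 reads. At chr5:130535201-130604800 they were 63.6 kb with 853 reads and 66.4 kb with 2110 reads, 714.8 kb from the shNT lists. The farthest of the 22 was chr5:102036401-102080000 at 2646.0 kb, with 38.8 and 41.6 kb. The region that narrowed, chr14:53621601-53689600, went from 66.0 to 56.4 kb. These 7 regions were chosen after their values were seen.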

How the data were processed

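EdU-HU-seq of U2OS-MycER cells was deposited as 1 list of broad regions per condition, made by the authors from merged replicates. For each region the deposited columns give a whole-number count of reads, not scaled to library size, and a score on a scale not given in the sources used here. The submitters' processing notes name BWA 0.6.2, SAMtools, SICER, hg19 and mm10 with no roles. The lists reach past the ends of hg38 on 13 of 22 autosomes, so the hg38 reference was not used, and genes and sequences were not analysed here. Limits lie on a grid of 400 bp.

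Autosomal regions of the 4 lists were merged where they overlapped or touched. The members and comparison sets were chosen with earlier results of these data known. Width is the bases a list calls inside a merged region, reads per kb its count over that width, and score percentile the rank of its best score among all regions of the list. Named are the 8 widest regions, the 5 densest in each list, the 5 narrowest, the 5 with the largest and smallest width ratio, the 3 nearest to and farthest from an shNT-list region, divided regions (8 at most) and the 3 just outside the rule. Medians have 95% order-statistic intervals, shares Wilson intervals and read densities exact Poisson intervals, the last for counting error only. No test was made. In simulated lists, 200 of 200 planted regions were recovered. Those lists were identical apart from the planted regions, so this checks the code only. Alternatives covered merging, overlap, score, list size, width, sex chromosomes and margin. Computation used scipy 1.17.1, pandas 2.3.3 and numpy 2.4.6 under Python 3.11.15, with plots from matplotlib 3.10.9.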

Additional observations from a re-analysis of the deposited data

Results flagged for a closer look

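Outside the autosomes, 2 merged regions on the sex chromosomes met the same rule, present in shCDK12 and shCDK12_OHT and absent from shNT and shNT_OHT. They were looked up because the sex chromosomes are not part of the comparisons above, and adding them gave 219 silenced-only regions. The converse set, in both shNT lists and neither silenced list, had 9 regions there and 133 with the sex chromosomes added.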

How the results depend on the processing

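The number of silenced-only regions was 217 as reported, 79 with a common minimum score, 131 at equal list size and 124 with no shNT-list region within 50 kb. Under 2 alternatives added after seeing the data it was 44 with the minimum score in the silenced lists only and 22 with the stricter rules together. It stayed between 157 and 313 under the other 7. The median width in shCDK12 was 43.2 kb with the common minimum score, 43.2 kb at equal list size, 42.0 kb with the minimum in the silenced lists and 46.6 kb with the stricter rules. In shCDK12_OHT it was 58.4, 64.8, 53.6 and 56.4 kb in that order, 58.8 kb from single shCDK12 regions and 42.8 kb with 50% overlap both ways. The median log2 width ratio was 0.89 from single regions, 0.31 with the common minimum score, 0.33 with 50% overlap, 0.18 with the minimum in the silenced lists and 0.25 with the stricter rules. Relative read density, on the log2 scale, was 0.19 from single regions. It was 0.0861 (-0.00114 to 0.176) with the minimum in the silenced lists and 0.0566 (-0.0716 to 0.275) with the stricter rules. Both of these intervals include 0. The median distance was 88.0 kb after joining across 10 kb, 153 kb with the 50 kb margin, which removes nearer regions by construction, 82.4 kb with the minimum in the silenced lists and 181 kb with the stricter rules. No median ratio changed sign. Other causes were not tested. No paired analysis was possible because each condition has 1 merged list, and for the same reason leaving out each replicate was not run. Absence from a list is no measure of the label there, and the part of depth in the calls was not tested.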
